A study of Bos taurus with 12 samples.

Results

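The 5 interferon-stimulated antiviral genes, ISG15, RSAD2, MX1, MX2 and IFI6, were examined in cultured cattle skin. They were chosen by their Ensembl cattle identifiers, ENSBTAG00000014707 (ISG15), ENSBTAG00000016061 (RSAD2), ENSBTAG00000030913 (MX1), ENSBTAG00000008471 (MX2) and ENSBTAG00000007554 (IFI6), and make up 5 of the 27607 genes in the deposited table. The table pairs no identifier with a name. The pairing of these 5 came with the selection and could not be checked here, because the reference at hand lists no Ensembl identifier. All 5 passed the filter on low counts and were among the 14594 genes tested.

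The explants came from Holstein heifers that were half-sisters, each with 1 of 2 sires heterozygous for the slick allele. Slick heifers carried SLICK1, an allele of the prolactin receptor gene known for a short, sleek coat, and the labels give the other genotype as wild type, here called non-slick. There were 6 slick and 6 non-slick libraries. The labels give neither the number of slick alleles per heifer nor age, and they tie no library to a sire or culture plate. Every explant of both genotypes was kept for 36 h at 38.5 °C with 50 ng/mL ovine prolactin, 0.4 ug/mL hydrocortisone, insulin-transferrin-selenium, amphotericin B and penicillin-streptomycin. No explant went without prolactin or hydrocortisone, and none is labelled as given interferon or virus, so the values are levels in this medium and not responses to it. PolyA RNA was sequenced in read pairs.

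Interferons are secreted proteins that cells release when they sense foreign nucleic acid. Type I interferon binds a receptor that uses the kinases JAK1 and TYK2, and the signal then switches on interferon-stimulated genes in the same and neighbouring cells. Keratinocytes, fibroblasts and leukocytes of the skin can all respond in this way, and in cattle these genes are also well known as blood markers of early pregnancy, when the embryo secretes interferon tau. Prolactin signals through a separate receptor of the cytokine family, coupled to JAK2 and STAT5.

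Total counts ran from 15442496 to 21678279 in non-slick and from 10903164 to 22036904 in slick libraries. Slick 2 was the shallowest, and slick 4 lay farthest out on the first principal component of log2 CPM, at 63.0, where the other libraries ran from -32.0 to 29.3. CPM are read counts scaled to a common library size, here with the trimmed mean of M values (TMM). The markers that would check the labelled tissue could not be matched to identifiers, so the cell make-up of the explants was not checked. In such bulk samples fewer cells of a type and less RNA per cell cannot be told apart. The labels do not say that each library is a heifer of its own, and the p-values therefore cover only the spread among libraries, which may be technical in part.

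No difference between slick and non-slick explants in any of the 5 genes passed the threshold used, an adjusted p of 0.05 over all genes tested. The quasi-likelihood test of edgeR called 0 of the 5, and across all 14594 genes it called 0, or 0% of them. At an unadjusted p of 0.05 edgeR listed none of the 5 genes either, against 5.56% of all genes (811). DESeq2 and limma-voom also called 0 of the 5, and neither listed any at an unadjusted p of 0.05. Here limma-voom was run throughout with sample quality weights, which give each library its own weight. Its values can differ from those of limma-voom without such weights, which was not run. Over all genes DESeq2 called 0.0218% (4 of 18374) and listed 5.29% at the unadjusted level, and limma-voom called 0% and listed 6.11%. Slick and non-slick values overlapped for each of the 5 genes, and 0.281% of all genes tested had groups that did not overlap. The fitted log2 fold changes, slick minus non-slick, had a median of -0.42 over the 5 genes, against 0.00312 over all genes tested. The fitted value was below 0 for 5 of 5 genes and for 7214 of all 14594, but those of MX1 and IFI6 changed sign when non-slick 6 was left out or limma-voom was used.

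**Figure D1:**
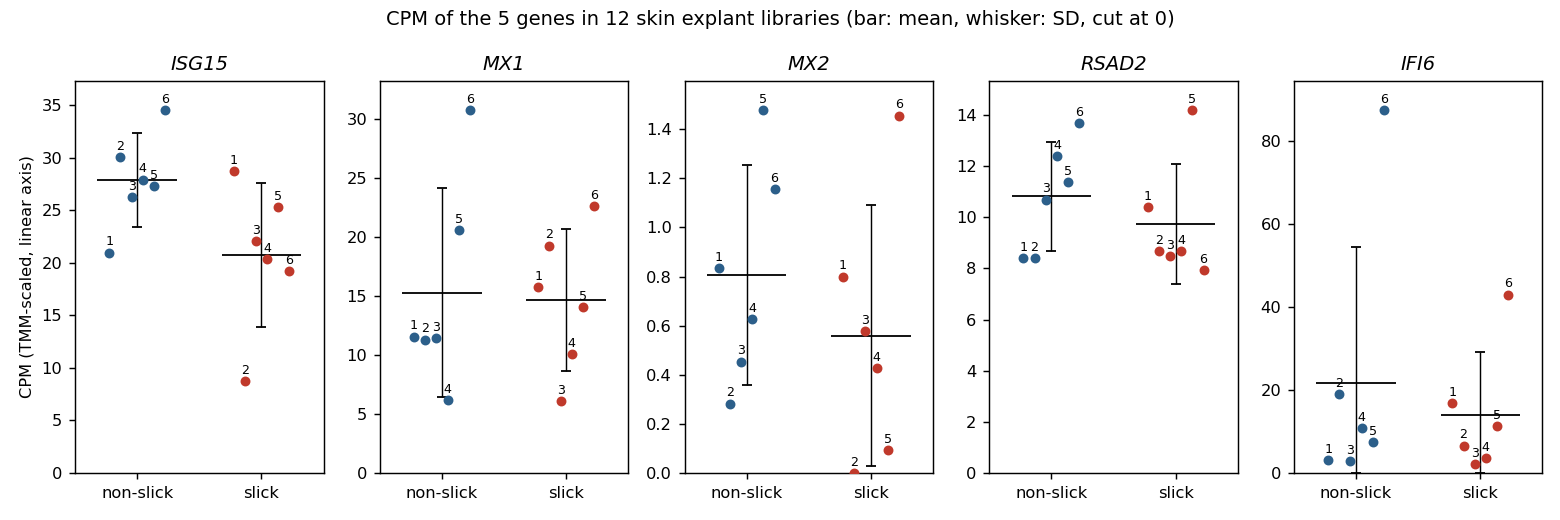
CPM (linear axis from 0) of each gene in every library, non-slick in blue and slick in red, with the replicate number beside each point, the group mean as a bar and the SD as a whisker (n = 6 each, cut at 0). The groups overlap in all 5 panels, and the replicate 6 libraries hold the highest IFI6 value of each genotype, 87.4 and 42.9 CPM.

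ISG15 encodes a ubiquitin-like protein that is attached to other proteins in interferon-treated cells and is also secreted. In non-slick libraries it had a lowest value of 21.0, a median of 27.6 and a highest value of 34.5 CPM. In slick libraries the lowest value was 8.75, the median 21.2 and the highest 28.7 CPM. Of the slick libraries, 3 of 6 lay below every non-slick library, 1 lay above the non-slick median, and none lay above the non-slick maximum. The slick mean was 20.8 ± 6.83 CPM and the non-slick mean 27.9 ± 4.47 CPM (SD, n = 6 each). The log2 fold change was -0.42 (SE 0.21, 95% interval -0.87 to 0.027), with an unadjusted p of 0.0638 and an adjusted p of 0.839 in edgeR. This interval spans a level in slick explants from 0.548 to 1.02 times that of non-slick explants. The lowest value came from slick 2, the library with the lowest total, and without it the log2 fold change was -0.27. The unadjusted p in edgeR was 0.0236 without slick 1 and 0.0432 without non-slick 1, with adjusted p of 0.658 and 0.853. With any other library left out, the unadjusted p in edgeR ran from 0.0520 to 0.138.

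RSAD2 encodes viperin, a radical SAM enzyme that makes a chain-terminating nucleotide against viral polymerases. In non-slick libraries its lowest value was 8.40, its median 11.0 and its highest value 13.7 CPM. In slick libraries these were 7.93, 8.67 and 14.2 CPM. The highest and the lowest of the 12 libraries were both slick (slick 5 and slick 6), and the remaining slick libraries lay within the non-slick range. The slick mean was 9.72 ± 2.34 CPM and the non-slick mean 10.8 ± 2.13 CPM (SD, n = 6 each). The log2 fold change was -0.16 (SE 0.18, 95% interval -0.54 to 0.23), with an adjusted p of 0.900 in edgeR. RSAD2 thus had the narrowest interval of the 5 genes, from 0.686 to 1.17 times the non-slick level. Without slick 5 the log2 fold change was -0.29, and without both replicate 6 libraries it was -0.019, the latter a setting chosen after seeing the data.

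MX1 and MX2 encode dynamin-like GTPases that assemble around viral components and block replication. In the RefSeq annotation of assembly ARS-UCD2.0 the genes are neighbours on 1 chromosome, with 0 protein-coding genes between them. How reads that fit more than 1 gene were treated is not given in the sources used here, and any reads the pair shares make their counts uncertain. MX1 had a lowest value of 6.17, a median of 11.5 and a highest value of 30.7 CPM in non-slick libraries. In slick libraries the lowest value was 6.11, the median 14.9 and the highest 22.6 CPM. The non-slick range enclosed all slick values but that of slick 3, and the order of the medians was the reverse of that of the means. The slick mean was 14.6 ± 6.00 CPM and the non-slick mean 15.3 ± 8.88 CPM (SD, n = 6 each). The log2 fold change was -0.068 (SE 0.37, 95% interval -0.87 to 0.74), with an adjusted p of 0.985 in edgeR. Without non-slick 6 it was 0.26, and without slick 6 it was -0.23.

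MX2 was near the limit of detection, with 160 counts over all 12 libraries and 0 to 31 counts per library. Non-slick libraries had a lowest value of 0.282, a median of 0.731 and a highest value of 1.48 CPM. Slick libraries had a lowest value of 0, a median of 0.502 and a highest value of 1.46 CPM. The value of 0 came from slick 2, where 3 counts, the limit that a count of 0 allows, correspond to 0.263 CPM. The slick mean was 0.559 ± 0.531 CPM and the non-slick mean 0.805 ± 0.448 CPM (SD, n = 6 each). The log2 fold change was -0.50 (SE 0.67, 95% interval -1.92 to 0.91), with an adjusted p of 0.908 in edgeR. The interval reaches from 0.265 to 1.88 times the non-slick level, and thus does not exclude a 2-fold lower level in slick explants. Without slick 6 the log2 fold change was -1.04, without non-slick 5 it was -0.24, and in limma-voom it was -1.51 (adjusted p = 0.813).

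IFI6 encodes a small membrane protein of the endoplasmic reticulum and mitochondria that limits flavivirus replication and cell death. Its non-slick values had a minimum of 2.79, a median of 9.07 and a maximum of 87.4 CPM. In slick libraries these were 2.19, 8.92 and 42.9 CPM. The medians were nearly equal, while 1 library in each genotype, non-slick 6 and slick 6, lay far above the rest of its group. Non-slick 6 alone held 42.8% of all IFI6 counts, 1813 of 4232. The slick mean was 13.9 ± 15.2 CPM and the non-slick mean 21.7 ± 32.7 CPM (SD, n = 6 each). The log2 fold change was -0.65 (SE 0.97, 95% interval -2.79 to 1.5), with an adjusted p of 0.927 in edgeR. The direction rested on non-slick 6: the log2 fold change was 0.70 without it, and -1.43 without slick 6. With both left out, again chosen after seeing the data, it was -0.087, and the slick mean was 8.07 ± 5.98 CPM and the non-slick mean 8.61 ± 6.70 CPM (SD, n = 5 each).

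**Figure D2:**
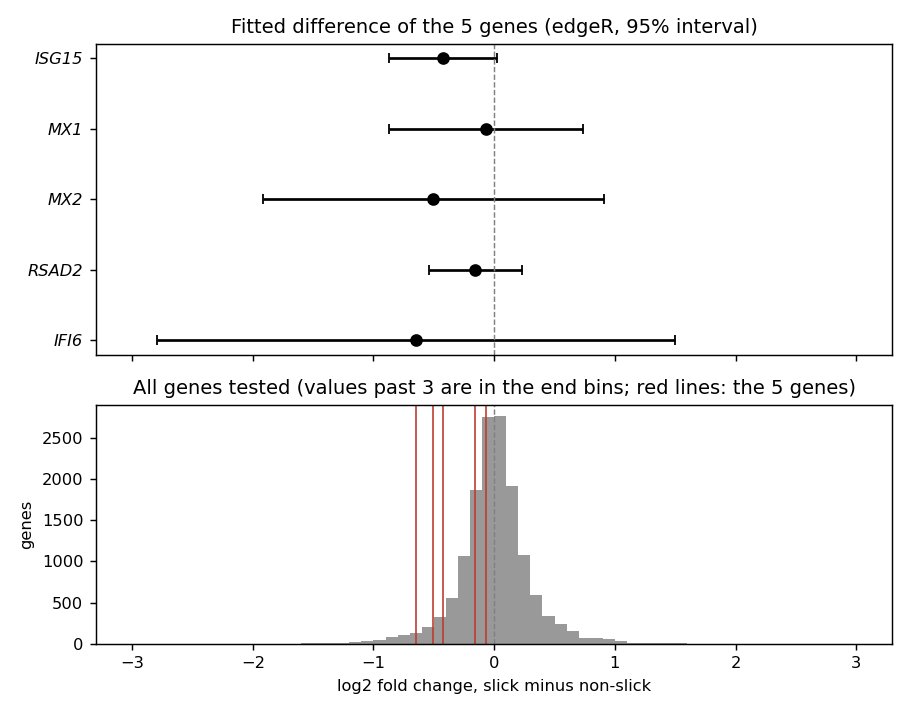
Upper panel, fitted log2 fold change (slick minus non-slick) of each gene with its 95% interval from edgeR; lower panel, the number of genes at each log2 fold change among all 14594 tested, with the 5 genes as red lines. All 5 intervals include 0, and they widen from RSAD2 (-0.54 to 0.23) to IFI6 (-2.79 to 1.5).

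The 5 genes differed in how much they varied between libraries of one genotype. This was measured as the SD of log2 CPM around the genotype mean, whose median over all genes tested was 0.31. IFI6 had an SD of 1.69, and 66 of the 14594 genes tested had a larger one (percentile 99.5). MX1 followed among the well-counted genes with 0.74 (percentile 87.1), then ISG15 with 0.46 (percentile 69.3) and RSAD2 with 0.30 (percentile 46.8). MX2 had 1.14 (percentile 96.5). In the plot of spread against level the SD falls with the mean over all genes, so each gene was also placed among genes whose mean CPM was within 2-fold of its own. There IFI6 stood at percentile 99.7 of 4314 genes, MX1 at 96.9 of 4196, ISG15 at 90.7 of 4535, MX2 at 78.6 of 1353 and RSAD2 at 38.4 of 3739. These percentiles describe the libraries and were given no test. The SD of ISG15 was 0.60 in slick and 0.24 in non-slick libraries. Without non-slick 6 the SD of IFI6 was 1.38, and without both replicate 6 libraries, chosen after seeing the data, it was 1.17. No percentile was recomputed with a library left out, neither without these nor without slick 2, the library lowest in ISG15.

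The spread of each gene was larger than its counting error. For IFI6 the average count gives a counting error of 5.97% in slick and 4.85% in non-slick libraries, while the coefficient of variation was 110% and 150%. For MX1 it gives 6.02% and 5.94%, against 41.0% and 58.1% observed. The RSAD2 coefficients of variation, 24.1% in slick and 19.7% in non-slick libraries, were also above counting errors of 7.29% and 7.11%. ISG15 had 32.9% in slick and 16.0% in non-slick libraries, with counting errors of 4.92% and 4.47%. Without slick 2 its SD of log2 CPM was 0.24 in place of 0.46. For MX2 the counting error was 29.5% and 25.7%, against 94.9% and 55.7% observed. From lowest to highest library, IFI6 spanned 39.9-fold, MX1 5.03-fold, ISG15 3.95-fold and RSAD2 1.79-fold. Single libraries set part of these ranges: without non-slick 6 that of IFI6 was 19.6-fold, and without slick 2 that of ISG15 was 1.79-fold.

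**Figure D3:**
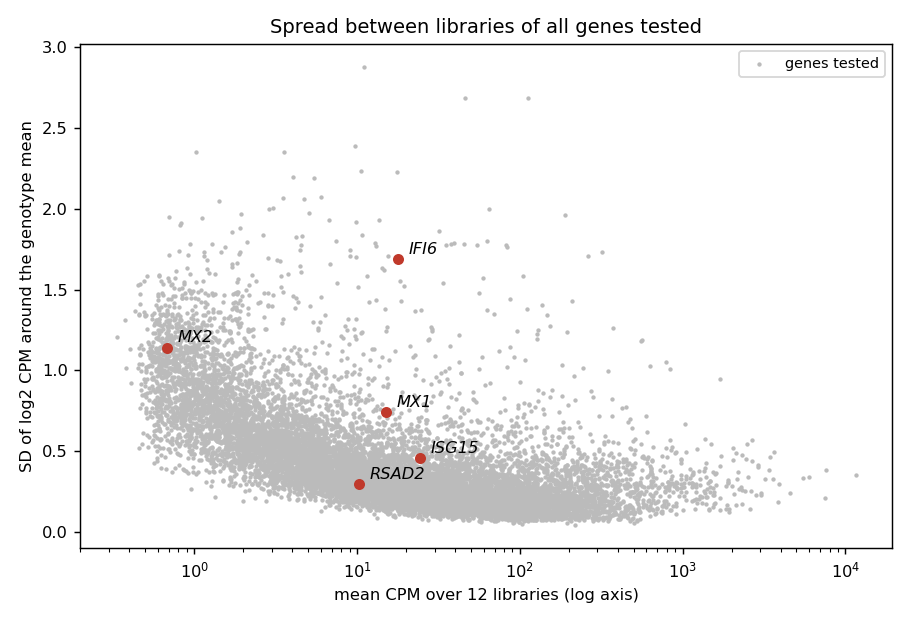
SD of log2 CPM around the genotype mean against mean CPM over 12 libraries (log axis) for all genes tested (grey) and the 5 genes (red). IFI6 (1.69) lies far above most genes of its level, MX1 (0.74) and ISG15 (0.46) lie in the upper part, and RSAD2 (0.30) lies within the main body. Without slick 2 the SD of ISG15 was 0.24, and without non-slick 6 that of IFI6 was 1.38.

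The 5 genes did not rise and fall as 1 block from library to library. Non-slick 6 was above the 12-library mean of log2 CPM in 5 of 5 genes, by 0.44 for RSAD2 up to 3.19 for IFI6. Slick 1 was also above in 5 of 5, by 0.045 to 0.82, and slick 4 was below in 5 of 5, with deviations of -0.19 to -1.39. The remaining libraries were mixed. Slick 6 had IFI6 at 2.17, MX2 at 1.33 and MX1 at 0.74 above their means, but ISG15 at -0.27 and RSAD2 at -0.34. Slick 2 had MX1 at 0.52 and ISG15 at -1.39, and non-slick 4 had RSAD2 at 0.30 and MX1 at -1.11. Ratios of counts do not depend on the scaling of libraries. That of IFI6 to MX1 ran from 0.244 to 2.84, an 11.6-fold range, or 7.78-fold without non-slick 6. The ratio of RSAD2 to ISG15 ran from 0.279 to 0.990, a 3.54-fold range, or 2.01-fold without slick 2. Those of MX1 to ISG15, IFI6 to RSAD2 and IFI6 to ISG15 spanned 9.95-fold, 24.7-fold and 25.5-fold. Leaving out 1 library lowered these at most to 5.31-fold, 20.9-fold and 22.5-fold.

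**Figure D4:**
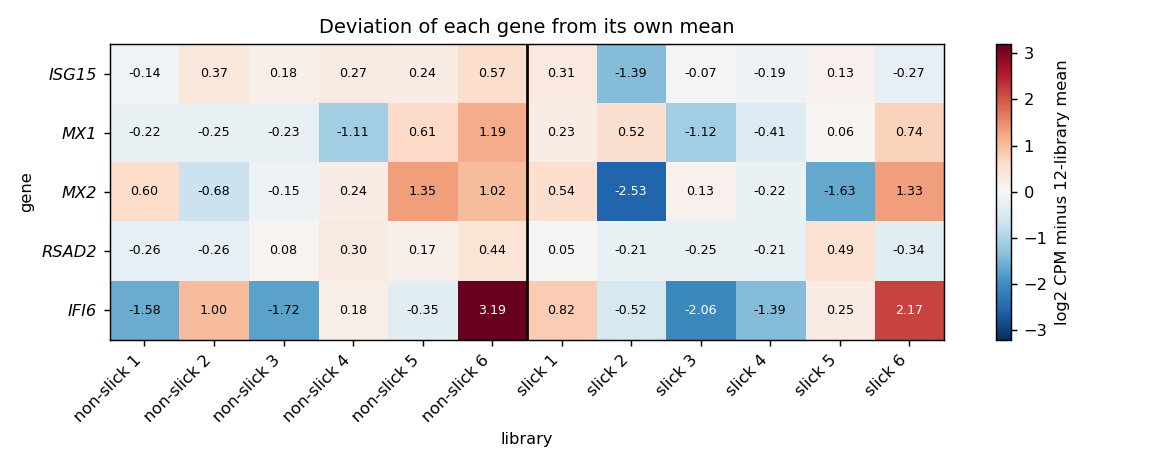
Log2 CPM of each gene (rows) minus its own 12-library mean in each library (columns), red above and blue below, non-slick to the left of the black line. Non-slick 6 and slick 1 are above the mean in all 5 rows and slick 4 is below in all 5, while slick 6 is at 2.17 for IFI6 and -0.34 for RSAD2.

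Correlations over the 12 libraries were computed for the 10 pairs of genes. Pearson's r was positive for 9 of 10 pairs, with a median of 0.30 and a range of -0.066 to 0.66. No pair passed 0.05 after adjustment over the 10 pairs (permutation test, two-sided), and 1 did before it. This was MX1 with IFI6, with r = 0.66 (permutation p = 0.0188, adjusted p = 0.188) and Spearman's rho = 0.60 (permutation p = 0.0428, adjusted p = 0.374). Within genotypes r was 0.85 in slick and 0.53 in non-slick libraries (n = 6 each). Without non-slick 6 and slick 3, the libraries farthest from the MX1 median, r was 0.35. Leaving out the extremes of MX1 narrows its range, which by itself can lower r. Without non-slick 6 alone r was 0.50, and without slick 3 alone it was 0.58. Without non-slick 6 and slick 6, a choice made after seeing the data, r was 0.32 (permutation p = 0.362). Without non-slick 4 it was 0.78, with an adjusted permutation p of 0.0418. By r with MX1, IFI6 ranked 226 among the 14593 other genes tested, and by r with IFI6, MX1 ranked 155.

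ISG15 and RSAD2 had r = 0.52 (permutation p = 0.0669, adjusted p = 0.223) and rho = 0.45 (permutation p = 0.146, adjusted p = 0.374). This pair had 0.44 within slick and 0.61 within non-slick libraries, and 0.55 without slick 2 and non-slick 6, the libraries farthest from the ISG15 median. ISG15 and MX2 had r = 0.58 (permutation p = 0.0570, adjusted p = 0.223), but rho was 0.23 (permutation p = 0.471, adjusted p = 0.785). Their relation rested on slick 2, where ISG15 was lowest and MX2 had no count: without it r was -0.035. ISG15 and MX1 had r = -0.066 (permutation p = 0.838, adjusted p = 0.931) and rho = 0.035 (permutation p = 0.921, adjusted p = 0.97), with -0.33 within slick and 0.45 within non-slick libraries. Without slick 2 and non-slick 6 this r was -0.061, but it was 0.28 without slick 2 alone and -0.32 without non-slick 6 alone. MX1 and MX2, the neighbouring pair, had r = 0.16 (permutation p = 0.612, adjusted p = 0.765) and rho = 0.45 (permutation p = 0.150, adjusted p = 0.374), and r = 0.067 without non-slick 6 and slick 3. The pairs not yet named had r from 0.025 (MX2 with RSAD2) to 0.33 (RSAD2 with IFI6), with adjusted permutation p from 0.612 to 0.941. Among them, ISG15 with IFI6 had r = 0.33 over all libraries, 0.88 within non-slick and 0.14 within slick libraries; a difference between genotypes in r was not tested.

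**Figure D5:**
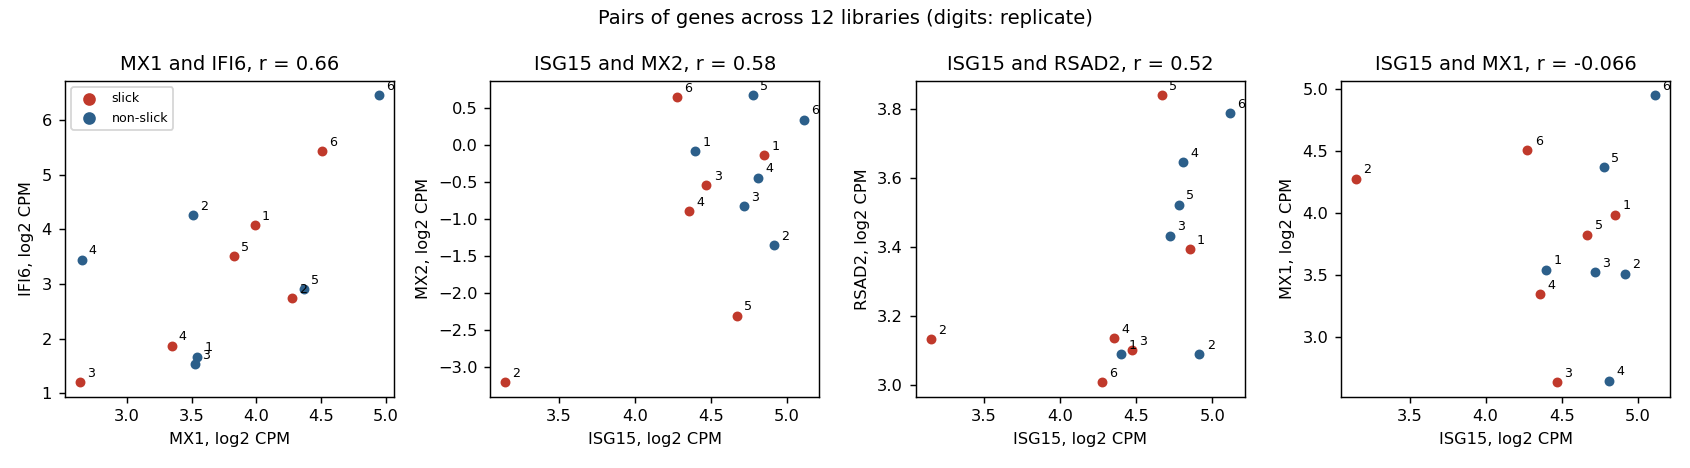
Log2 CPM of 4 pairs of genes in the 12 libraries (non-slick blue, slick red, replicate number beside each point), with Pearson's r above each panel. MX1 and IFI6 (r = 0.66) have non-slick 6 and slick 6 at the upper right, and in the ISG15 and MX2 panel (r = 0.58) slick 2 lies alone at the lower left.

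Sequencing depth and the first principal component were set beside the 5 genes in the same way, as 10 further relations. None passed 0.05 after adjustment over the 10 (permutation test, two-sided). The r of largest size was that of ISG15 with log2 total count, r = 0.69 (permutation p = 0.0420, adjusted p = 0.345), with rho = 0.15 (permutation p = 0.636, adjusted p = 0.795). Without slick 2 and non-slick 2, the libraries farthest from the median total, r was 0.20. By rank, RSAD2 with log2 total count had rho = 0.59 (permutation p = 0.0460, adjusted p = 0.230), with r = 0.48 (permutation p = 0.103, adjusted p = 0.345) and 0.43 without the same libraries. ISG15 with the first component had rho = -0.59 (permutation p = 0.0459, adjusted p = 0.230), with r = -0.41 (permutation p = 0.176, adjusted p = 0.439) and -0.45 without slick 4 and slick 6. The part of depth in the low ISG15 value of slick 2 was not tested. IFI6 had r = 0.23 with log2 total count (permutation p = 0.476, adjusted p = 0.680), with rho = 0.22 (permutation p = 0.499, adjusted p = 0.795). Without slick 2 and non-slick 2 r was 0.42. On the first component the libraries high in IFI6 lay at 22.8 (non-slick 6) and 29.3 (slick 6), while slick 4, at 63.0, had 3.55 CPM of IFI6.

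By its mean r with the other 4 genes, IFI6 had 0.40, and 1.67% of the 14590 genes compared had a higher mean r with the same 4. ISG15 had 0.34, with 4.78% of genes higher. RSAD2 (0.27, with 11.7% of genes higher), MX2 (0.26, with 10.4%) and MX1 (0.24, with 13.2%) followed. The mean r and these shares were not recomputed with a library left out. The value of IFI6 depended in part on non-slick 6. Without that library the r of IFI6 was 0.14 with ISG15, 0.50 with MX1, 0.14 with MX2 and 0.057 with RSAD2. Of the 14589 genes outside the 5, ENSBTAG00000051146 was most like them over the 12 libraries, with a mean r of 0.59 that ran from 0.34 with MX1 to 0.85 with ISG15. Its slick mean was 1.25 ± 0.702 CPM and its non-slick mean 1.55 ± 0.499 CPM (SD, n = 6 each), and its adjusted p in edgeR was 0.908. The slick values of this gene were low, from 0.438 to 2.50 CPM. Its r was not recomputed without slick 2, the library lowest in ISG15 and MX2. ENSBTAG00000004925 came next with a mean r of 0.55, from 0.50 with MX2 to 0.65 with IFI6, with a slick mean of 1.57 ± 0.524 CPM and a non-slick mean of 1.83 ± 0.458 CPM (SD, n = 6 each). Both were picked as the highest of 14589 values, and the files do not pair these identifiers with names.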

How the data were processed

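The authors deposited raw read counts per gene, whole numbers with 1 column per library; columns were tied to samples by the library names in the labels. STAR, HTSeq, FastQC and R 4.3.1 appear in the submitters' processing notes, where neither role nor order is stated. The genome build, annotation release and strand setting are not given in the sources used here, and counts for genes that overlap or lie antisense to others are uncertain for this reason. The RefSeq table used here (ARS-UCD2.0, 37063 genes) gave an Ensembl identifier for 0 genes, and 0 of 27607 identifiers were matched. The lists of other interferon, sensor, prolactin and cell type genes were therefore not analysed here.

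Genes were kept by filterByExpr (14594), scaled by TMM and tested with the robust quasi-likelihood F-test of edgeR 4.0.16 in R 4.3.3, with genotype as the sole term and Benjamini-Hochberg adjustment over all genes. Log2 CPM used a prior count of 2. Correlations used 100000 permutations. Alternatives used DESeq2 1.42.0, limma 3.58.1 (limma-voom with sample quality weights) and those under the closing section. The scripts were tested on simulated data. No 2 libraries were the same library: chi-square per degree of freedom was at least 16.4 over 66 pairs. Levels were not compared between genes, since transcript lengths were not used here. Members, lists and the rule for named genes (the 5 genes in full, and the genes most like them by mean r, limited to the first 2 identifiers where no names are given) were chosen with earlier results of these data known.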

Additional observations from a re-analysis of the deposited data

Results flagged for a closer look

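In each group of 6 libraries, the gap of the highest and of the lowest value to its nearest neighbour was divided by the range of the group and set against Dixon's 95% critical value for that size. Of 12 groups of values (CPM of the 5 genes and the total count, in each genotype), 3 passed it. Chance marks about 1 in 20 groups where values are independent and normally distributed. Linear CPM need not be normal and the groups share libraries, so that rate is a rough guide here. IFI6 in non-slick 6, at 87.4 CPM, had a gap of 0.808 of the range. IFI6 in slick 6, at 42.9 CPM, had a gap of 0.643 of the range. Both passed on linear CPM alone: on log2 CPM, examined afterwards, the gaps were 0.445 and 0.320 of the range, under the critical value. On that scale ISG15 in slick 2 passed it, with a gap of 0.662, against 0.525 on linear CPM. The total count of slick 2, 10903164, had a gap of 0.663 of the range. In the libraries high in IFI6, MX1 was also the highest of its genotype, at 30.7 CPM in non-slick 6 and 22.6 CPM in slick 6. RSAD2 was the highest of its genotype in non-slick 6 (13.7 CPM) and the lowest in slick 6 (7.93 CPM).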

How the results depend on the processing

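No alternative brought any of the 5 genes past an adjusted p of 0.05. ISG15, RSAD2 and MX2 kept their sign in every alternative run (21, 21 and 20, MX2 failing the stricter filter). In limma-voom the log2 fold change was 0.067 for IFI6 and 0.040 for MX1. With 1 library left out, the log2 fold change ran from -1.43 to 0.70 for IFI6 and from -0.23 to 0.26 for MX1, turning for IFI6 without non-slick 6 (0.70), and for MX1 without non-slick 5 (0.035), non-slick 6 (0.26), slick 3 (0.093) or slick 4 (0.022). It ran from -0.53 to -0.27 for ISG15, -0.29 to -0.073 for RSAD2 and -1.04 to -0.24 for MX2. Same-numbered libraries deviated from their group means with correlations of -0.091 to 0.26, over 0.1 in 2 of 6 pairs. The 2 pairs were those numbered 5 (0.12) and 6 (0.26), and 4 of 12 libraries correlated best with their own number. Whether the numbers pair any samples cannot be told from this check, since the correlations were low and the labels do not say. With the replicate block MX1 was at 0.0015, ISG15 at -0.48, RSAD2 at -0.16, MX2 at -0.77 and IFI6 at -0.32, and edgeR called 0 genes. Over all genes DESeq2 called 4, and leaving out 1 library gave 0 to 2, the 2 without non-slick 4.

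The correlation of MX2 with RSAD2 (0.025) was -0.084 with group means removed and -0.24 without slick 2 and 4, and ran from -0.19 to 0.33 with 1 library left out. Without slick 2 and 4, ISG15 had 0.24 with MX1 and -0.11 with MX2. With 1 library left out these ran from -0.32 to 0.28 and from -0.035 to 0.69. MX1 with IFI6 ran from 0.50 to 0.78, MX1 with RSAD2 from -0.081 to 0.41 and MX1 with MX2 from 0.022 to 0.45. ISG15 with IFI6 ran from 0.14 to 0.48, ISG15 with RSAD2 from 0.42 to 0.66, MX2 with IFI6 from 0.14 to 0.35, and RSAD2 with IFI6 from 0.057 to 0.58.

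Added after seeing the data, leaving out both replicate 6 libraries gave MX1 a log2 fold change of 0.097, correlations of -0.20 for MX1 with MX2 and -0.15 for MX2 with IFI6 and 0.32 in place of 0.66 for MX1 with IFI6, and an IFI6 SD of 1.17 in place of 1.69. The ISG15 SD, 0.46, was 0.24 without slick 2 and 4, and 0.24 to 0.48 with 1 library left out. The cause of these changes was not tested. With 1 library left out, the SD of IFI6 ran from 1.38 to 1.78, MX1 0.65 to 0.78, MX2 0.92 to 1.2 and RSAD2 0.23 to 0.31. Over all alternatives they reached 1.17 to 1.81, 0.62 to 0.79, 0.92 to 1.62 and 0.23 to 0.32, the 1.62 of MX2 with a prior count of 0.5. The planned lists were not run for want of names.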
